A study of Mus musculus with 8 samples.

Results

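Cyclic AMP is made, broken down and read in the cell by 3 groups of proteins, and their genes are described here in mouse dorsal root ganglia after a nerve crush. The genes were taken by symbol: the adenylyl cyclases (Adcy with a number), all symbols that start with Pde and a digit, and the catalytic and regulatory subunits of protein kinase A, or PKA (Prkaca, Prkacb, Prkar1 and Prkar2). The rule found 42 of the 24033 gene symbols in the table, and 38 of them had enough counts to be tested. The peptide gene Adcyap1 was left out of the rule and is treated with the ligands. Its receptor gene Adcyap1r1 was left out too and is counted with the receptors.

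Adenylyl cyclases turn ATP into cyclic AMP when a receptor activates the stimulatory G protein. Phosphodiesterases hydrolyse cyclic AMP, cyclic GMP or both, and so set where and for how long the signal lasts. Cyclic AMP binds the regulatory subunits of PKA and frees the catalytic subunits, which phosphorylate channels, enzymes and the transcription factor CREB. In sensory neurons of rodents this pathway is known to raise excitability and, when cyclic AMP is elevated, to favour axon growth after injury.

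Mice received a crush of the sciatic nerve on a single side, and L4 to L6 ganglia were dissected after 24 h. The injury group, with 4 libraries, comes from the crushed side. The naive group, also with 4 libraries, comes from the uncrushed side of operated mice, so it is not tissue of unoperated animals. The labels name no genotype, drug, strain, age or sex. Each repeat pooled ganglia of 2 mice, and per the design text both sides of a repeat came from the same mice. The main fit did not use this pairing, so its p-values measure the spread between pools within each group. An alternative fit used the replicate number as a block. The tissue label says dissociated ganglia, and whether the cells were cultured is not given in the sources used here. RNA was sequenced from the 3′ end of transcripts, and levels are in CPM, a gene's count scaled for library size, without division by transcript length because each transcript is read at its end.

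Total counts ranged from 17141116 to 22466009 in injury libraries and from 15446931 to 29412510 in naive libraries. The first principal component, with 31.0% of the variance, parted the groups; the second, with 16.6%, set naive replicate 1 apart at 46.6, against -21.1 to 11.3 for all other libraries. Summed levels of 14 sensory neuron markers were 25838 to 30472 CPM in injury and 24855 to 27593 CPM in naive libraries, and 1 of them rose (Slc17a6) and 1 fell (Isl1); the fit with a replicate block called 2 higher and 1 lower, and scaling by library totals 0 higher and 3 lower. Satellite glia markers summed to 1894 to 2129 CPM in injury and 1733 to 2177 CPM in naive libraries, and 1 of 10 rose (Glul) and 1 fell (Ednrb); with the block 2 were called higher and 2 lower. Myelinating Schwann cell markers summed to 725 to 934 CPM in injury and 751 to 1115 CPM in naive libraries; 8 of the 9 had a negative log2 fold change, with a median of -0.51. Endothelial and mural markers summed to 147 to 229 CPM in injury and 142 to 193 CPM in naive libraries, and macrophage markers to 18.5 to 31.6 CPM in injury and 15.3 to 32.2 CPM in naive libraries. Fibroblast markers summed to 171 to 257 CPM in injury and 157 to 326 CPM in naive libraries, and 1 of 6 rose (Pdgfra). No marker of these 6 lists was at 0 in all libraries. The shares called by edgeR were 14.3% of sensory neuron, 20% of satellite glia and 16.7% of fibroblast markers, against 12.6% of all genes tested. By edgeR, 0 of 9 Schwann, 0 of 11 tested macrophage and 0 of 12 endothelial and mural markers passed the test. Of them, 1, 2 and 0 had an unadjusted p under 0.05. At a share of 12.6%, lists this short would hold few called genes, so these counts of 0 do not show an unchanged cell make-up. DESeq2 and limma-voom also called 0 in these 3 lists, though limma-voom had 4 Schwann markers at an unadjusted p under 0.05, and the fit with a replicate block called 1 endothelial and mural marker. In such bulk samples, fewer cells of a type and less RNA per cell cannot be told apart.

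After the crush, 3 phosphodiesterase genes rose (Pde1c, Pde4b and Pde7a), while 2 phosphodiesterase genes (Pde2a and Pde4d) and 1 PKA regulatory subunit gene (Prkar2b) fell. Without a replicate block, none of the adenylyl cyclases and neither PKA catalytic subunit gene passed the test. With the block, the cyclase gene Adcy4 passed it (edgeR adjusted p = 0.0495). A gene was called changed at a Benjamini-Hochberg adjusted p under 0.05 over 13639 genes in edgeR's quasi-likelihood test. By that rule 6 of the 38 tested genes, or 15.8%, were called, against 12.6% of all genes tested; 3 were higher, against 8.12% of all genes, and 3 lower, against 4.47%. The share called was near that of genes at large. The median log2 fold change of the 38 genes was -0.12, with 12 positive and 26 negative, and that of all genes tested was -0.0039. Groups did not overlap in CPM for 11 of the 38 genes, or 28.9%, against 16.8% of all genes tested (9.80% with injury above and 7.02% with injury below). Injury lay above in 5 of the 11 and below in 6. Those 38 exclude the 4 genes with too few counts (Adcy10, Pde3a, Pde6a and Pde6c), so they are not the whole set.

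**Figure D1:**
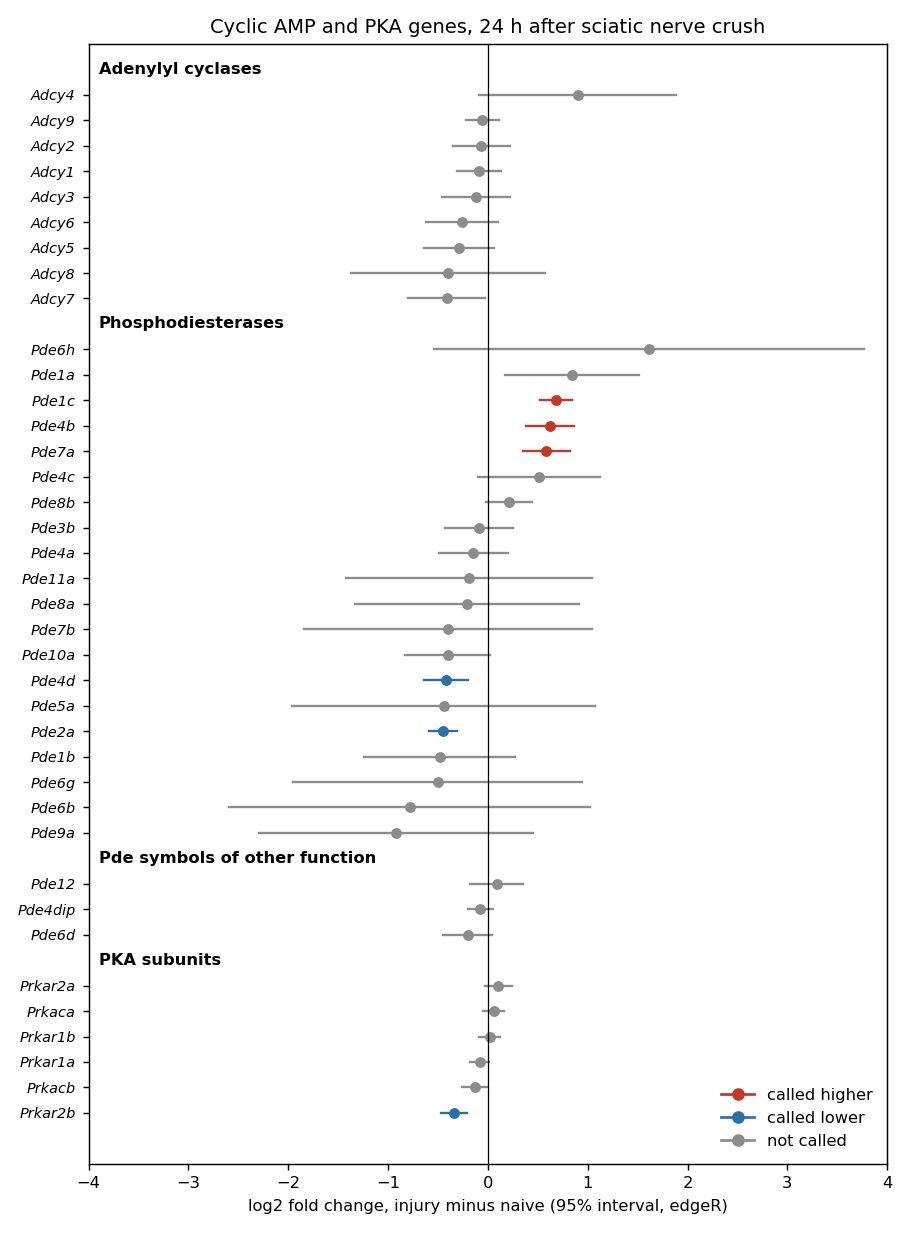
Log2 fold change, injury minus naive, of the 38 tested genes with its 95% interval from edgeR, ordered by size within adenylyl cyclases, cyclic nucleotide phosphodiesterases, Pde symbols of other function and PKA subunits. Red points are the 3 genes called higher, blue points the 3 called lower, and grey points the 32 not called; the widest intervals belong to genes of low count such as Pde6h.

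Promoter windows of the genes were read from RefSeq (build GRCm38.p6, 250 bases before to 50 after a transcript start), and 33 of the 42 genes had at least 1 window. The cyclic AMP response element, the DNA motif bound by CREB, was searched as TGACGTCA and as its shorter core TGACG on either strand (CGTCA on the other); every full motif also holds the core. The full motif stood in 2 of 71 windows of these genes, 2.82%, against 588 of 32851 windows genome-wide, 1.79%. Both windows belong to Prkar1a and overlap each other, so they show a single motif. The core stood in 16 of the 71 windows, 22.5%, against 20.8% of all windows. Counted by gene, it stood in at least 1 window of 14 of 33 genes, 42.4%, against 6228 of 27025 genes, 23%; these 33 genes have 71 windows, and all 27025 genes have 32851, so a gene here had more windows in which to hold it. Among the genes called changed it stood in 2 of 15 windows, 13.3%, or 2 of 5 genes, once in Pde4b and once in Pde2a. Pde7a, also called changed, had no window. The 4 windows below show, with motifs in capitals, a riser and a faller that each carry the core, the regulatory subunit gene with the full motif, and Prkar2b, the regulatory subunit gene that fell and has none. They lie at chr4:102421305-102421604 (plus strand, Pde4b), chr7:101450270-101450569 (plus strand, Pde2a), chr11:109650699-109650998 (plus strand, Prkar1a) and chr12:32061228-32061527 (minus strand, Prkar2b).
Pde4b: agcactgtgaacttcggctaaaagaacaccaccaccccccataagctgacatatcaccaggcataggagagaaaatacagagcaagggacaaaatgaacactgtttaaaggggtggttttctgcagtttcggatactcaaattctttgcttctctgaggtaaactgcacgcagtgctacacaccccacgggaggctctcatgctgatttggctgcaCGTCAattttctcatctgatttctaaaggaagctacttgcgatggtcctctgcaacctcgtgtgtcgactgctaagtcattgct
Pde2a: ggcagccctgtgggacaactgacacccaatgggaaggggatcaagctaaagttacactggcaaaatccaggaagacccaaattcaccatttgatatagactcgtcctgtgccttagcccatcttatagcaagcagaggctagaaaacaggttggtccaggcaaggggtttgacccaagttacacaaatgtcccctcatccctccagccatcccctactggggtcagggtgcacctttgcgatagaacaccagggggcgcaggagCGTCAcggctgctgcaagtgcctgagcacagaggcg
Prkar1a: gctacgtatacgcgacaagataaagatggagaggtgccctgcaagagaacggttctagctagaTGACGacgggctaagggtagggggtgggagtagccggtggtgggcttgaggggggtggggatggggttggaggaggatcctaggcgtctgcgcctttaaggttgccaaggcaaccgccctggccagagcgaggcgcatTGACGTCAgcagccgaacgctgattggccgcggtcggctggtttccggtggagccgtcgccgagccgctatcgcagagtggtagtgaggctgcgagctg
Prkar2b: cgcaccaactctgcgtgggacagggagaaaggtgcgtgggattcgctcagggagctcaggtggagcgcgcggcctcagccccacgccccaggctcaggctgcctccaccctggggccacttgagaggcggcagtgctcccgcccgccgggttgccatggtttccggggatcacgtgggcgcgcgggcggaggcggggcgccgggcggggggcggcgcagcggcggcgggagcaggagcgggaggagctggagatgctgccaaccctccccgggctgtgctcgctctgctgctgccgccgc
The core began 34 bases before the start in this Pde4b window and 14 bases after it in this Pde2a window. A match is a description of the letters and not a bound site. Pde4b and Pde2a each have other windows without either motif. Which start was used was not measured, since the libraries read transcript ends.

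Synthesis was first examined through the 10 adenylyl cyclase genes. By edgeR, 0 of the 9 tested were called, against 12.6% of all genes tested, and 1 (Adcy7) had an unadjusted p under 0.05. At that share, 9 genes would hold few called genes, so a count of 0 does not set the cyclases apart. DESeq2 and limma-voom also called 0, and the fit with a replicate block called 1 (Adcy4). Their summed level was 184 ± 8.20 CPM in injury and 198 ± 12.9 CPM in naive libraries (SD, n = 4 each), and the groups overlapped. Adcy9, a cyclase of broad expression that is weakly sensitive to forskolin, was the most abundant. It had 76.0, 82.9, 74.6 and 77.1 CPM in injury libraries, against 78.8, 91.2, 78.7 and 74.4 CPM in naive libraries. These values overlapped, and the log2 fold change of -0.06 had a 95% interval of -0.22 to 0.11 (edgeR adjusted p = 0.738).

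Adcy9 held 42.3 ± 1.87% of cyclase counts in injury and 40.9 ± 2.57% in naive libraries. Adcy1, a neuronal cyclase stimulated by calcium and calmodulin, came next in level. It had 44.0, 40.8, 34.8 and 35.8 CPM in injury libraries, against 38.0, 44.5, 45.7 and 37.0 CPM in naive libraries. The highest and lowest values were mixed between groups, and its log2 fold change was -0.09 with an interval of -0.31 to 0.13 (edgeR adjusted p = 0.693). The other calcium-stimulated cyclases were lower in level: Adcy3, known from olfactory neurons and cilia, averaged 12.1 CPM in injury and 13.1 CPM in naive libraries, and Adcy8 averaged 1.53 CPM in injury and 2.04 CPM in naive libraries. Adcy3 overlaps Cenpo on the opposite strand, so its count is uncertain without the strand setting.

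The calcium-inhibited cyclases were Adcy5 and Adcy6. Adcy5 had 12.0, 11.5, 18.5 and 12.5 CPM in injury libraries, against 12.6, 17.5, 17.6 and 18.7 CPM in naive libraries. Injury replicate 3 stood with the upper naive values, and the gene was not called (log2 fold change -0.29, edgeR adjusted p = 0.32). Adcy6 had 8.58 to 9.34 CPM in injury and 9.43 to 11.7 CPM in naive libraries; the groups did not overlap, but it was not called (log2 fold change -0.26, edgeR adjusted p = 0.395).

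Adcy2, Adcy4 and Adcy7 form the class that G protein beta-gamma subunits stimulate together with the stimulatory alpha subunit. Adcy2, the most abundant of them, had 21.3, 19.1, 15.3 and 21.1 CPM in injury libraries, against 17.0, 20.04, 22.2 and 21.1 CPM in naive libraries. Its groups overlapped, with a log2 fold change of -0.07 and an interval of -0.35 to 0.22 (edgeR adjusted p = 0.835). Adcy7 had 7.29 to 9.52 CPM in injury and 9.59 to 13.5 CPM in naive libraries, without overlap, and its log2 fold change of -0.41 (interval -0.80 to -0.02) had an edgeR adjusted p of 0.171.

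Whether Adcy4 was called without a block depended on naive replicate 1. It had 5.76, 4.71, 3.44 and 2.00 CPM in injury libraries, against 5.15, 1.28, 1.38 and 0.976 CPM in naive libraries. Naive replicate 1 lay among the injury values and the other naive libraries lay below all of them. Within each replicate number, the injury library was higher than the naive library. Adcy4 was not called in the fit without a block (log2 fold change 0.90 ± 0.471 SE, edgeR adjusted p = 0.256). With the replicate number as a block the adjusted p was 0.0495, and without naive replicate 1 it was 0.00575, with a log2 fold change of 1.73. Over all alternatives it ranged from 0.00575 to 0.484. Pecam1, an endothelial adhesion molecule named here after its values were seen, had 81.5, 38.4, 49.2 and 33.6 CPM in injury and 56.3, 36.7, 34.3 and 30.3 CPM in naive libraries. Both genes were highest in replicate 1 of each group; the part of endothelial cells in the Adcy4 values was not tested. The soluble, bicarbonate-regulated cyclase Adcy10 had 0 counts in all 8 libraries, and a limit of 3 counts allows a level of up to 0.101 to 0.188 CPM per library.

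The make-up of the phosphodiesterase counts differed between the groups, while their summed level overlapped. Of the 23 genes for cyclic nucleotide phosphodiesterases or their subunits, 20 were tested. The 23 genes summed to 456 ± 9.81 CPM in injury and 437 ± 16.3 CPM in naive libraries, with both ranges shared in part. Of the 20, 3 rose and 2 fell, a share of 25% against 12.6% of all genes tested (8.12% higher and 4.47% lower). The 5 that changed held most of this sum, and no phosphodiesterase called changed had a mean over all 8 libraries below 32.3 CPM.

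**Figure D2:**
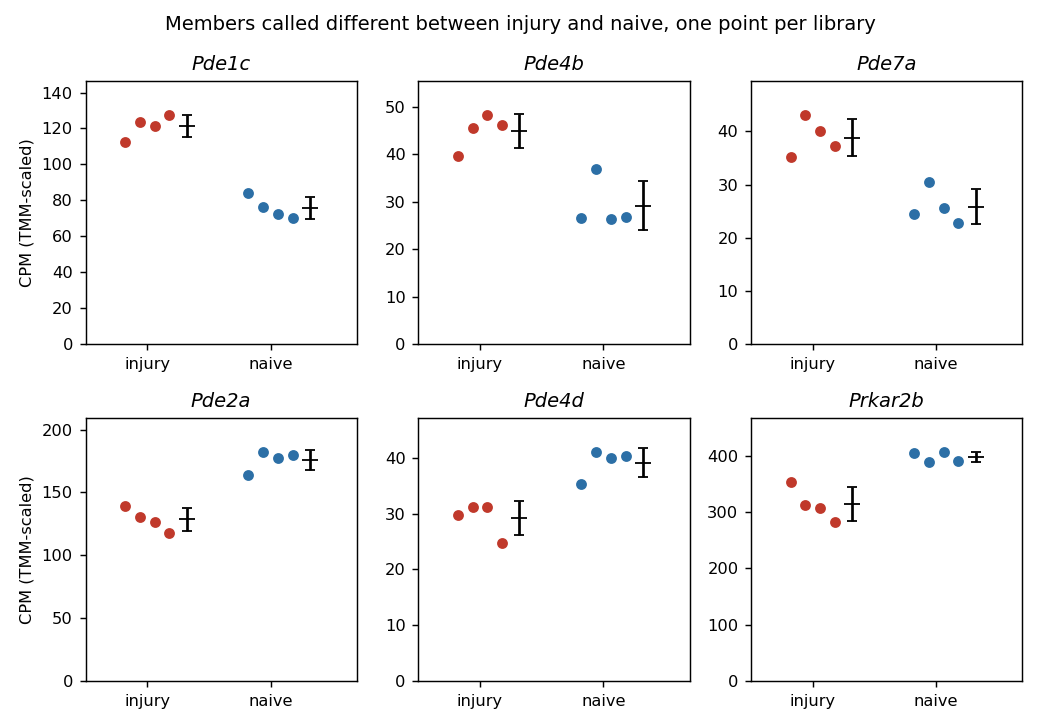
TMM-scaled CPM of the 6 genes called changed, with 1 point per library, injury left of naive, and the mean ± SD of 4 libraries beside each group. In all 6 genes the injury and naive points do not overlap; Pde1c, Pde4b and Pde7a lie higher in injury, and Pde2a, Pde4d and Prkar2b lie lower.

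Pde1c encodes a calcium and calmodulin-stimulated enzyme that hydrolyses both cyclic nucleotides (chromosome 6, 56069804 to 56569103 on GRCm38). It had 113, 124, 121 and 127 CPM in injury libraries, against 84.1, 76.5, 72.2 and 70.1 CPM in naive libraries. Every injury library exceeded every naive one, and it rose (log2 fold change 0.68 ± 0.0755 SE, edgeR adjusted p = 5.35e-07). Its share of phosphodiesterase counts was 26.6 ± 1.04% in injury and 17.3 ± 1.78% in naive libraries. The related Pde1a had 6.11, 5.36, 4.73 and 7.33 CPM in injury libraries, against 1.07, 3.28, 4.42 and 4.17 CPM in naive libraries. Its groups did not overlap either, yet it missed the threshold (log2 fold change 0.84 ± 0.324 SE, edgeR adjusted p = 0.0971). Pde1b, the remaining gene of the calmodulin-regulated family, averaged 2.15 CPM in injury and 3.00 CPM in naive libraries and was not called.

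Pde2a, an enzyme that cyclic GMP stimulates to break down cyclic AMP, was the most abundant phosphodiesterase gene in the naive ganglia (chromosome 7, 101421691 to 101512827). It had 139.5, 131, 126 and 118 CPM in injury libraries, against 164, 182, 178 and 179.9 CPM in naive libraries. All injury values lay below all naive values, a 1.37-fold fall (log2 fold change -0.45 ± 0.0669 SE, edgeR adjusted p = 3.18e-05). Its share of phosphodiesterase counts was 28.2 ± 2.46% in injury and 40.2 ± 1.13% in naive libraries. The ratio of Pde1c to Pde2a was 0.808, 0.948, 0.963 and 1.08 in injury libraries, against 0.513, 0.420, 0.406 and 0.389 in naive libraries. In injury replicate 4 alone the Pde1c count exceeded that of Pde2a. The annotation lists 9 coding end sites for Pde1c and 2 for Pde2a, and how fully the ends of each were counted is not known. The gene model Gm45837 overlaps Pde2a on the same strand, so its count is uncertain to that extent.

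**Figure D3:**
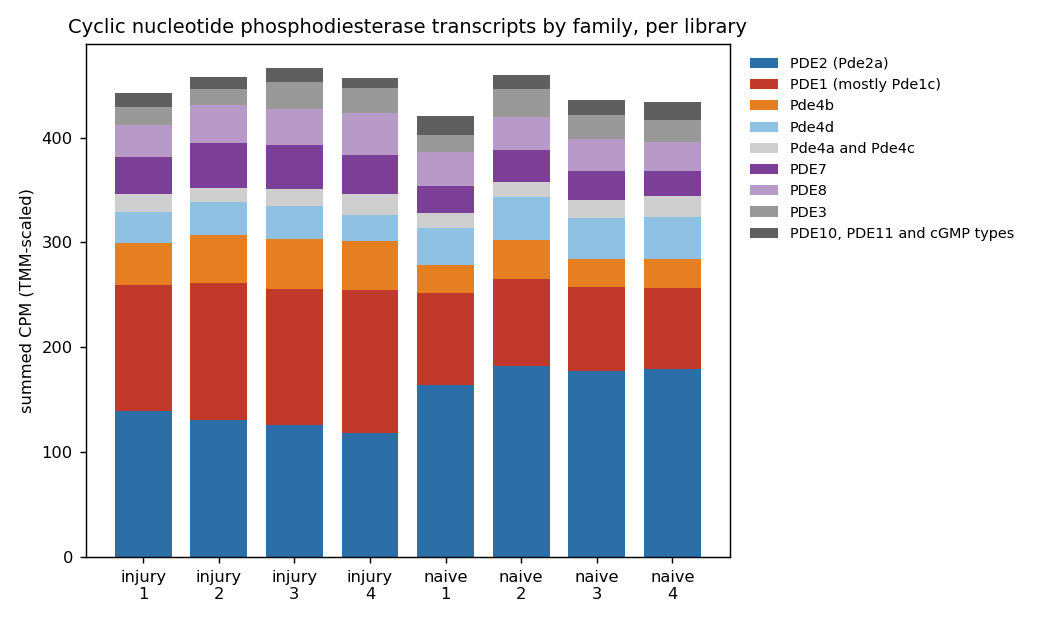
Summed CPM of cyclic nucleotide phosphodiesterase genes in each of the 8 libraries, injury left of naive, stacked by family with Pde4b and Pde4d drawn apart. The bars reach 442 to 466 CPM in injury and 420 to 460 CPM in naive libraries, while the PDE2 segment is smaller and the PDE1 segment larger in all injury libraries.

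The cyclic AMP-specific PDE4 family showed opposite changes of 2 genes while the totals of the groups overlapped. The family summed to 90.7 ± 3.86 CPM in injury and 84.7 ± 6.77 CPM in naive libraries, a difference within the spread. Pde4b (chromosome 4, 102087543 to 102607259), which is known for its induction by cyclic AMP and inflammatory stimuli, had 39.7, 45.6, 48.2 and 46.2 CPM in injury libraries, against 26.7, 36.8, 26.4 and 26.9 CPM in naive libraries. Naive replicate 2 was the closest to the injury values but below all of them, and the rise was 1.54-fold (log2 fold change 0.62 ± 0.116 SE, edgeR adjusted p = 0.000535). Pde4d (chromosome 13, 108449948 to 109953461), a gene with 12 annotated coding transcripts of different start sites, had 29.8, 31.2, 31.2 and 24.8 CPM in injury libraries, against 35.3, 41.0, 39.9 and 40.4 CPM in naive libraries. It was lower in every injury library, by 1.34-fold (log2 fold change -0.42 ± 0.107 SE, edgeR adjusted p = 0.00876). The ratio of Pde4b to Pde4d was 1.33, 1.46, 1.54 and 1.86 in injury libraries, against 0.756, 0.898, 0.661 and 0.665 in naive libraries. Pde4b counts thus exceeded Pde4d counts in each injury library, and Pde4d counts exceeded Pde4b counts in each naive library. The annotation lists 7 coding end sites for Pde4b and 4 for Pde4d. How fully the ends of each gene were counted is not known, so this ranking is of counts and not of transcripts. A change in the ends used was not tested. Pde4a averaged 11.9 CPM in injury and 13.1 CPM in naive libraries and Pde4c averaged 4.68 CPM in injury and 3.26 CPM in naive libraries, and neither was called.

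Pde7a, a cyclic AMP-specific enzyme of high affinity (chromosome 3, 19223108 to 19311322), also rose. It had 35.1, 43.0, 40.0 and 37.2 CPM in injury libraries, against 24.5, 30.5, 25.6 and 22.9 CPM in naive libraries. The groups did not overlap, and the gene rose (log2 fold change 0.59 ± 0.113 SE, edgeR adjusted p = 0.000742). An unnamed gene model, Gm16093, overlaps it on the other strand, so its count is uncertain without the strand setting. Pde8b, the abundant gene of the other high-affinity family, averaged 34.0 ± 3.95 CPM in injury and 29.4 ± 2.03 CPM in naive libraries and was not called (log2 fold change 0.21, interval -0.02 to 0.44, edgeR adjusted p = 0.259). Pde7b and Pde8a were near 1 CPM and were not called.

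Among the other dual-specificity enzymes, Pde3b, which insulin signalling activates in fat and liver, averaged 20.4 CPM in injury and 21.6 CPM in naive libraries, with overlap. Pde10a, known as the striatal phosphodiesterase, averaged 7.91 CPM in injury and 10.5 CPM in naive libraries (log2 fold change -0.40, edgeR adjusted p = 0.235). Pde11a averaged 1.34 CPM in injury and 1.53 CPM in naive libraries, and Pde3a had 5 counts over the injury and 2 over the naive libraries. The 7 genes for cyclic GMP-specific enzymes or their subunits were Pde5a, Pde9a and the photoreceptor genes Pde6a, Pde6b, Pde6c, Pde6g and Pde6h. Of these, Pde6g and Pde6h encode inhibitory and not catalytic subunits. The 7 genes summed to 0.822 to 3.50 CPM in injury and 2.64 to 4.01 CPM in naive libraries. By edgeR 0 of the 5 tested were called, against 12.6% of all genes tested, and 0 had an unadjusted p under 0.05. A count of 0 is not unusual for so few genes at that share. Limma-voom called 0 as well, and DESeq2 gave an adjusted p for Pde9a alone. Pde9a, the most abundant of them by the mean over all 8 libraries, had 0.841, 0.559, 0.154 and 0.545 CPM in injury libraries, against 1.13, 0.683, 0.893 and 1.31 CPM in naive libraries, which overlapped at their edges. At such levels its interval was wide, -2.30 to 0.45 on the log2 scale. Pde6a had 0 counts over the injury and 4 over the naive libraries and Pde6c had 0 and 2, which is under or near the 3-count limit of a single library.

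The Pde symbols also hold 3 genes that were counted apart from the cyclic nucleotide phosphodiesterases and their subunits. Pde4dip encodes myomegalin, a scaffold of the Golgi and centrosome that binds PDE4D. It had 225, 246, 247 and 265 CPM in injury libraries, against 266, 254, 272 and 244 CPM in naive libraries, which overlapped (log2 fold change -0.08, edgeR adjusted p = 0.515). Pde6d, a carrier of prenylated proteins, averaged 47.1 CPM in injury and 54.3 CPM in naive libraries, and Pde12, a mitochondrial enzyme that trims RNA tails, averaged 25.7 CPM in injury and 24.2 CPM in naive libraries. Neither was called; Pde12 overlaps Arf4 and Pde6h overlaps Arhgdib on the opposite strand, so their counts are uncertain. The same holds for gene models without a given name that overlap Prkar1b on the same strand and Adcy2, Adcy6, Adcy8, Pde5a, Pde8b, Pde9a, Pde10a and Pde4dip on the opposite strand.

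The PKA catalytic genes were not called. Prkaca, which encodes the widely expressed C-alpha subunit, had 538, 551, 539 and 595 CPM in injury libraries, against 516, 561, 531 and 529 CPM in naive libraries. The groups overlapped, and the interval of its log2 fold change was narrow, -0.05 to 0.17 around 0.06 (edgeR adjusted p = 0.582). Prkacb, for the C-beta subunit that is enriched in neurons, had 300.3, 274, 252 and 271 CPM in injury libraries, against 289, 329, 283 and 298 CPM in naive libraries. Injury replicate 1 lay within the naive values and the other injury libraries below them (log2 fold change -0.13, interval -0.26 to 0.0041, edgeR adjusted p = 0.223). Summed catalytic levels were 830 ± 31.2 CPM in injury and 834 ± 38.8 CPM in naive libraries.

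Of the 4 regulatory subunit genes, only Prkar2b passed the test. It encodes RII-beta, the type II subunit that A-kinase anchors hold in place in neurons and fat (chromosome 12, 31958476 to 32061296). It had 354, 313, 307 and 283 CPM in injury libraries, against 406, 389, 407 and 391 CPM in naive libraries. Every injury library lay below every naive one, and the fall was 1.27-fold (log2 fold change -0.34 ± 0.0619 SE, edgeR adjusted p = 0.000384). Its share of regulatory subunit counts was 12.8 ± 0.935% in injury and 15.3 ± 0.439% in naive libraries.

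Prkar2a, for the related RII-alpha subunit, had 138, 131, 136 and 147 CPM in injury libraries, against 125, 128, 129 and 131 CPM in naive libraries. The injury values were all the higher, though by a narrow margin, and it was not called (log2 fold change 0.11, interval -0.03 to 0.24, edgeR adjusted p = 0.337). Prkar1a, for RI-alpha, the most abundant subunit gene of all 6, had 1296, 1329, 1284 and 1237 CPM in injury libraries, against 1356, 1378, 1341 and 1369 CPM in naive libraries. These groups did not overlap, but the log2 fold change of -0.08 was not called (edgeR adjusted p = 0.295). Prkar1b, the brain-enriched RI-beta gene, averaged 716 ± 6.43 CPM in injury and 707 ± 34.0 CPM in naive libraries, with overlap.

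Together the regulatory genes summed to 2454 ± 59.8 CPM in injury and 2594 ± 30.8 CPM in naive libraries, without overlap. The ratio of regulatory to catalytic counts was 2.96 ± 0.147 in injury and 3.11 ± 0.136 in naive libraries and overlapped. Prkar1a held 52.4 ± 0.784% of regulatory counts in injury and 52.5 ± 0.950% in naive libraries, so the smaller share of Prkar2b stood beside a larger share of Prkar1b and Prkar2a. Prkar1b held 29.2 ± 0.555% in injury and 27.3 ± 0.998% in naive libraries, and Prkar2a held 5.63 ± 0.380% in injury and 4.94 ± 0.0664% in naive libraries.

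**Figure D4:**
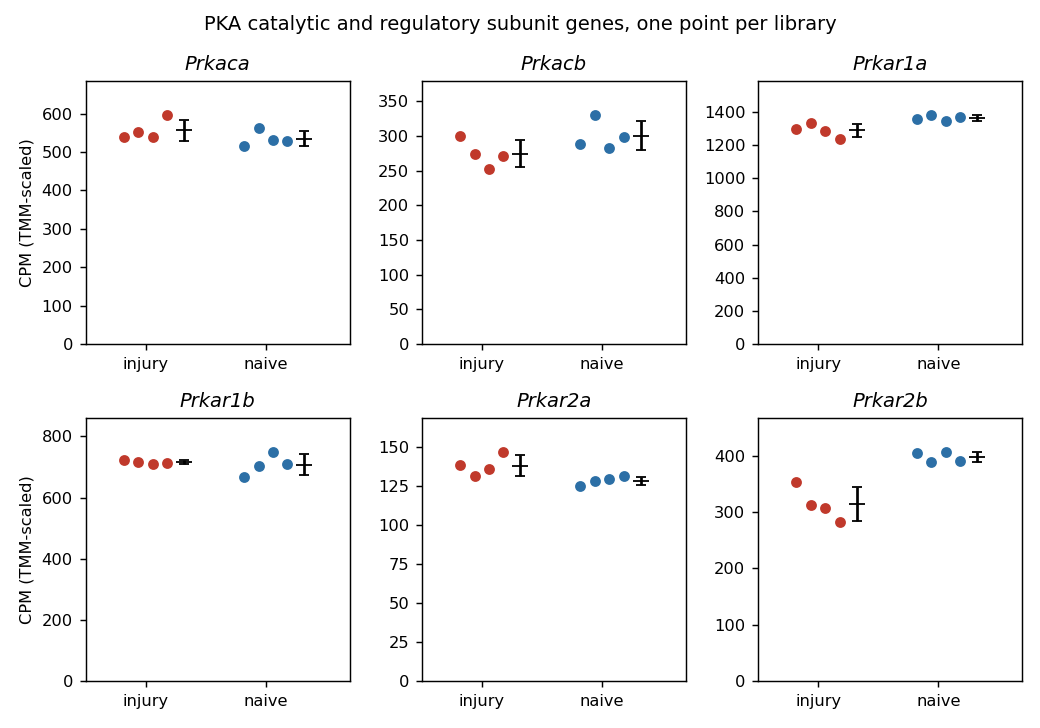
TMM-scaled CPM of the 6 PKA subunit genes, with 1 point per library, injury left of naive, and the mean ± SD of 4 libraries beside each group; each panel starts at 0. Prkar2b spans 283 to 354 CPM in injury and 389 to 407 CPM in naive libraries, while Prkaca, Prkacb and Prkar1b overlap between groups.

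All 6 changed genes remained called in each of the 16 alternative fits. Their highest adjusted p over these fits was 1.56e-05 for Pde1c, 0.000326 for Pde2a, 0.00241 for Prkar2b, 0.00515 for Pde4b, 0.00663 for Pde7a and 0.043 for Pde4d. Injury replicate 1 was the injury library nearest to the naive mean in 5 of the 6 genes, and in Pde4d it was injury replicate 3. DESeq2 and limma-voom called the same 6 genes and no other of the 42; DESeq2 gave no adjusted p for Pde5a, Pde6b, Pde6g and Pde6h.

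Upstream and downstream genes were counted in lists built by their role in the pathway. Set against -0.0039 over all genes tested, the median log2 fold change was 3.52e-05 for ligands, -0.02 for G proteins, 0.04 for PKA inhibitors and other effectors, 0.0048 for A-kinase anchors, 0.15 for CREB factors and coactivators and -0.22 for cyclic GMP synthesis and kinases. Shares of called genes in these lists stand against 12.6% of all genes tested, with 8.12% higher and 4.47% lower. Of the 5 tested ligand genes for receptors that raise cyclic AMP, 2 rose (40%). Adcyap1, which encodes PACAP, a strong stimulator of adenylyl cyclase, had 198, 354, 329 and 339 CPM in injury libraries, against 66.9, 68.9, 66.1 and 68.9 CPM in naive libraries. Injury replicate 1 was the lowest of its group and still far above the naive values (4.50-fold, edgeR adjusted p = 0.000107). Crh, the corticotropin-releasing hormone gene, had 530 counts over the injury and 11 over the naive libraries, with 2 naive libraries at 0 (edgeR adjusted p = 0.000115).

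Of 30 receptors that couple to the stimulatory G protein, 17 were tested and 4 fell (23.5%): Adora2a, Ptgdr, Ptgir and Htr4. The replicate block, DESeq2 and library totals each called 5 lower. Their median log2 fold change was -0.45 over the 17. The adenosine receptor gene Adora2a averaged 4.91 ± 1.27 CPM in injury and 10.5 ± 1.42 CPM in naive libraries (edgeR adjusted p = 0.00117). The prostaglandin D2 receptor gene Ptgdr averaged 38.7 ± 4.64 CPM in injury and 57.6 ± 7.52 CPM in naive libraries (edgeR adjusted p = 0.000569), and the prostacyclin receptor gene Ptgir averaged 44.4 ± 4.67 CPM in injury and 61.1 ± 4.85 CPM in naive libraries (edgeR adjusted p = 0.00147). The serotonin receptor gene Htr4 was at 2.59 ± 0.386 CPM in injury and 5.40 ± 1.499 CPM in naive libraries (edgeR adjusted p = 0.0134), and without injury replicate 4 or naive replicate 4 its adjusted p was 0.0509 and 0.102. Among 8 G protein genes 1 fell (12.5%), a share near the 12.6% of all genes tested. This was Gnao1, an inhibitory-class alpha subunit abundant in neurons. It averaged 1466 ± 58.1 CPM in injury and 1709 ± 92.0 CPM in naive libraries (edgeR adjusted p = 0.00345). With the replicate block, DESeq2 or library totals 2 of the 8 genes fell. Gnas, for the stimulatory alpha subunit, averaged 1015 ± 50.5 CPM in injury and 1039 ± 28.4 CPM in naive libraries and was not called (edgeR adjusted p = 0.757); it overlaps the antisense gene Nespas, so its count is uncertain.

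**Figure D5:**
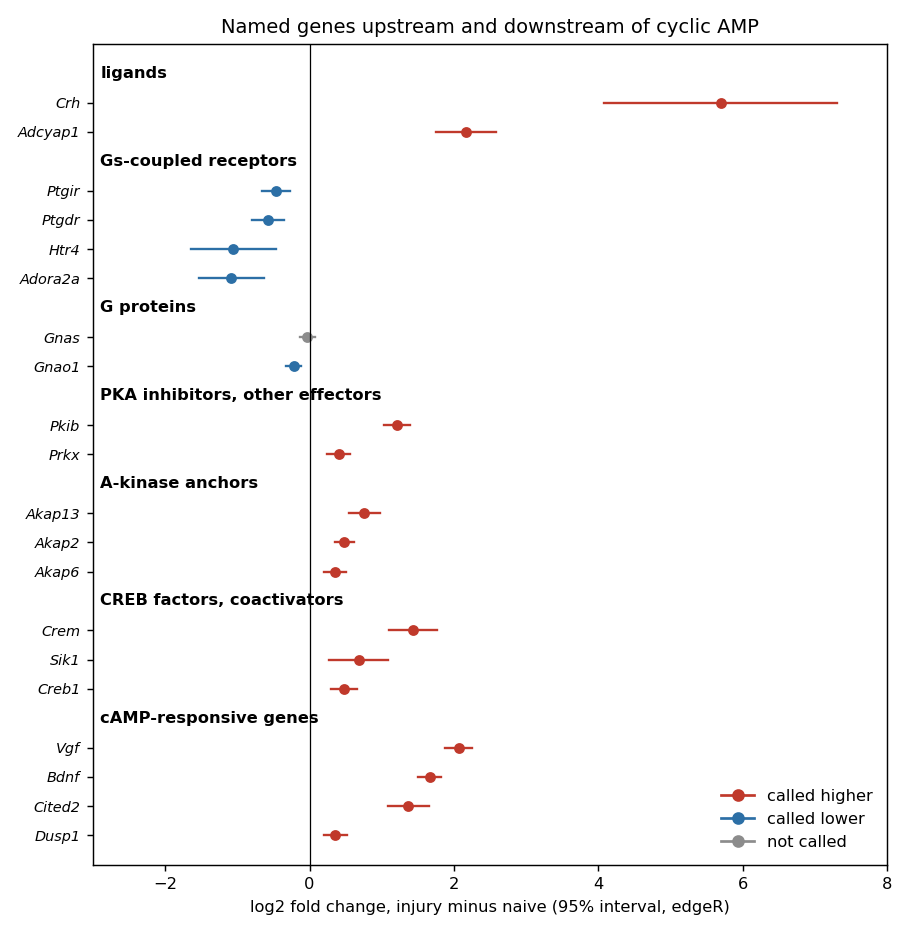
Log2 fold change, injury minus naive, with its 95% interval from edgeR, of 20 named genes that act before or after cyclic AMP, grouped by role. Red genes were called higher, blue genes called lower and grey genes not called; the 4 receptor genes lie below 0, while Pkib, Crem, Vgf, Bdnf, Cited2 and the 2 ligand genes lie above 1.

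Among 9 genes for PKA inhibitors and other cyclic AMP effectors, 2 rose (22.2%), and library totals also called 1 lower. Pkib, which encodes a small inhibitor of the PKA catalytic subunits, had 81.6, 96.2, 82.0 and 96.6 CPM in injury libraries, against 38.4, 38.9, 39.8 and 36.8 CPM in naive libraries. Its groups lay far apart, and the rise was 2.32-fold (log2 fold change 1.21 ± 0.0866 SE, edgeR adjusted p = 3.47e-10). Prkx, a kinase related to the PKA catalytic subunits, averaged 105 ± 3.80 CPM in injury and 79.1 ± 6.41 CPM in naive libraries (edgeR adjusted p = 0.000555). Of 14 tested A-kinase anchor genes, which hold PKA at sites in the cell, 3 rose (21.4%): Akap13 by 1.69-fold, Akap2 by 1.40-fold and Akap6, an anchor at the nuclear envelope, by 1.28-fold (edgeR adjusted p = 8.42e-06, 4.84e-06 and 0.00161). DESeq2 and library totals also called 1 anchor gene lower. Akap2 overlaps the gene model Pakap on the same strand, so its count is uncertain.

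Among 11 genes for CREB-type factors and their coactivators, 3 rose (27.3%). Crem, a CREB relative that also yields a cyclic AMP-inducible repressor, had 25.6, 28.8, 26.6 and 28.96 CPM in injury libraries, against 8.10, 12.6, 7.41 and 12.3 CPM in naive libraries. The groups did not overlap, and the rise was 2.71-fold (log2 fold change 1.44 ± 0.161 SE, edgeR adjusted p = 6.37e-07). Creb1, for CREB itself, averaged 80.2 ± 9.64 CPM in injury and 57.7 ± 1.45 CPM in naive libraries (edgeR adjusted p = 0.000411). Sik1, a CREB-inducible kinase that restrains CREB coactivators, averaged 9.98 ± 1.37 CPM in injury and 6.25 ± 0.956 CPM in naive libraries (edgeR adjusted p = 0.024). Its adjusted p was 0.0531 to 0.0905 when injury replicate 1 or 2 or naive replicate 3 or 4 was left out.

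Of 16 tested genes known as cyclic AMP-responsive, 7 rose and 1 fell, or 50%, against 12.6% of all genes tested. Their median log2 fold change was 0.05, and library totals gave 6 higher and 2 lower. This list was chosen with earlier results of these data known, so its share is a description and not a test. The growth factor-like peptide precursor gene Vgf rose by 4.18-fold, to 757 ± 105 CPM in injury libraries against 181 ± 13.4 CPM in naive libraries (edgeR adjusted p = 1.06e-10). Bdnf, the brain-derived neurotrophic factor gene, rose by 3.17-fold, to 321 ± 41.5 CPM in injury libraries against 101 ± 5.23 CPM in naive libraries (edgeR adjusted p = 8.14e-13). Cited2, a CBP-binding regulator, and Dusp1, a MAP kinase phosphatase, rose by 2.58-fold and 1.28-fold (edgeR adjusted p = 1.12e-07 and 0.00213). Nr4a2, the gene that fell, averaged 11.2 ± 2.43 CPM in injury and 16.5 ± 3.10 CPM in naive libraries (edgeR adjusted p = 0.0357). In the list of 14 genes for cyclic GMP synthesis and its kinases, 8 were tested. Of these, 0 were called by edgeR, against 12.6% of all genes tested, and 0 by DESeq2 or limma-voom. In these fits 0 had an unadjusted p under 0.05. A count of 0 is not unusual for so few genes at that share. Bdnf, Crem, Gnao1 and Dusp1 each overlap another gene or gene model on the opposite strand, so their counts are uncertain too.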

How the data were processed

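Libraries made with the QuantSeq 3′ kit (REV) from 4 injury and 4 naive samples were analysed. The authors deposited raw counts, as whole numbers with 1 line per gene symbol. Per the submitters' processing notes, the tools were bcl2fastq 2.17, STAR and HTSeq and the build was GRCm38 (mm10); tool settings, strand handling and annotation are not given there. Of 24060 table lines, 27 had a calendar date in place of a symbol (0.146% to 0.158% of counts) and were left out; Rn45s, 4.48% to 6.76% of counts, was kept.

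Genes that passed filterByExpr were TMM-scaled and tested with edgeR 4.0.16 (R 4.3.3, robust quasi-likelihood F-test, no block), with Benjamini-Hochberg adjustment over all 13639 of them. The SE of a log2 fold change was taken as its size over the root of F. The script was run on simulated counts with known changes, drawn with a single dispersion and without pairing. That run checks the code and not the design. CPM values are TMM-scaled. Reads lack molecular identifiers and are not independent, so limits from counts cover counting error only. The biological coefficient of variation was 17.1%, and libraries within a group differed beyond sampling noise.

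Per the design text, injured and contralateral ganglia of a repeat came from the same mice, and the replicate number was read as that repeat. Correlations of same-numbered libraries' deviations from their group means were 0.0569, 0.0524, 0.0558 and 0.0352. Between libraries of different number they ranged from -0.084 to 0.0378. Injury replicate 4 had a higher value with naive replicate 3 (0.0378) than with naive replicate 4 (0.0352). The replicate block was an alternative, as were DESeq2 1.42.0, limma-voom (limma 3.58.1), scaling by DESeq2 size factors or by library totals, a filter at a mean of 5 CPM or none, and leaving out each library. A fit without both libraries numbered 1 was added after seeing the data.

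The genes and lists were chosen with earlier results of these data known. Values per library are given for every called gene of the 42, for the most abundant of each subgroup and for those called by other fits only. From each pathway list up to 4 called genes with the smallest p are named, with Adcyap1, Gnas, Creb1 and Crem. Per-library values of Pde1a, Prkacb and Prkar2a, and the genes Pecam1, Nr4a2, Slc17a6, Isl1, Glul, Ednrb and Pdgfra, are outside this rule, picked once their values were known. Positions are from GENCODE M21 on GRCm38, where all 42 genes were placed. No protein sequences were compared.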

Additional observations from a re-analysis of the deposited data

Results flagged for a closer look

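Among the 42 genes and the named pathway genes, 116 groups of 4 libraries in 58 genes were examined for a library far from the other members of its group, and 9 were found; chance alone gives this in about 1 in 20 groups. In the injury group, replicate 3 was low for Adcy3 (10.84 CPM, the others 12.48 to 12.49) and for Pde8a (0.7192 CPM, the others 1.118 to 1.195), and high for Adcy5 (18.49 CPM, the others 11.51 to 12.54). Injury replicate 1 was low for Adcyap1 (197.9 CPM, the others 328.6 to 354) and Cited2 (32.37 CPM, the others 48.17 to 49.93). In the naive group, replicate 1 was high for Adcy4 (5.148 CPM, the others 0.9763 to 1.385) and low for Vgf (161.3 CPM, the others 184.6 to 189.2). Naive replicate 3 was high for Adcy7 (13.53 CPM, the others 9.594 to 9.856). Naive replicate 2 was high for Pde4b (36.84 CPM, the others 26.35 to 26.86), and Pde4b was called with and without it.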

How the results depend on the processing

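Of the 42 genes, 3 higher and 3 lower were called in every alternative, and Adcy4 was added by 3 of them. With the replicate block 1245 genes were higher and 779 lower, and of the 42 genes 4 were higher and 3 lower; apart from Adcy4 the block changed no call among them. With library totals in place of TMM, under which the median of all genes was -0.0568 (log2), 889 genes were higher and 1001 lower, against 1108 and 609 as reported. The median of the tested genes was then -0.1763, the log2 ratio of summed phosphodiesterase levels 0.006024 (0.06 as reported) and that of PKA regulatory levels -0.133 (-0.08 as reported). Leaving out each library gave a median of -0.1643 to -0.08487, and leaving out both libraries numbered 1, chosen after seeing the data, gave -0.1875. Signs turned for genes that were never called: Prkar1b was at -0.0359 with library totals, at -0.006053 to 0.03547 with single libraries left out and at -0.01391 without both libraries numbered 1, and Gnas at 0.008384 without those. With single libraries left out, Pde11a ranged from -0.5579 to 0.1329, Pde3b from -0.2284 to 0.0259, Adcy2 from -0.1328 to 0.01607 and Adcy9 from -0.09713 to 0.003751. The cause of these shifts was not tested. Genes under about 5 CPM had wide intervals, and changes in them were not detectable at this depth unless large.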
